A study of Mus musculus with 6 samples.

Results

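The genes described here carry out and control the opening steps of branched-chain amino acid catabolism: the aminotransferase genes Bcat1 and Bcat2, the subunit genes Bckdha, Bckdhb, Dbt and Dld of the branched-chain ketoacid dehydrogenase complex, and Bckdk, the gene of its kinase. They were taken from the count table by matching Ensembl identifiers to these 7 symbols, and all 7 of 56980 identifiers were found and passed the filter on low counts that left 17901 genes for testing. The libraries came from mouse lung tumours labelled as small cell lung cancer, 3 from Keap1 knockout tumours and 3 from control tumours, all labelled QKO tumours, at about 4 months from the virus injection. The alleles behind QKO, which the controls carry too, the way Keap1 was disrupted, the cells the virus acts in and the use of separate animals are not spelled out in the labels, so any p measures the spread between these samples, which may be technical. Counts on genes totalled between 21801647 and 23759892 per knockout library and between 18731515 and 20065069 per control library. KEAP1 holds back NRF2, the transcription factor of the oxidative stress response. Keap1 RNA averaged 80.2 ± 12.8 CPM in knockout tumours and 70.5 ± 10.4 CPM in control tumours (SD, n = 3 each), where CPM are counts scaled to a common library total. The Keap1 levels overlapped between the groups, so they do not check the labels. The neuroendocrine markers Chga and Insm1 were at most 0.366 CPM in every knockout library. In control 1 they stood at 7.92 and 18.0 CPM and in control 2 at 0.495 and 1.39 CPM. Control 3 held 948 and 622 CPM and was the only library of the 6 in which both were abundant. Syp, Calca and Ncam1, the other markers of this list reported here, overlapped between the groups. Calca stood at 116, 32.5 and 20.0 CPM in knockouts 1 to 3, against 37.0, 0.941 and 2037 CPM in controls 1 to 3.

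Leucine, isoleucine and valine are first stripped of their amino group, which passes to 2-oxoglutarate to form glutamate. BCAT1 does this in the cytosol and BCAT2 in mitochondria. The resulting ketoacids are then oxidised in mitochondria by the dehydrogenase complex, whose decarboxylase is built from BCKDHA and BCKDHB, whose core acyltransferase is DBT and whose flavoprotein DLD it shares with the pyruvate and 2-oxoglutarate dehydrogenases. BCKDK phosphorylates BCKDHA and so switches the complex off, and the phosphatase PPM1K reverses this. BCAT1 is known for its high level in brain and in several cancers, and BCAT2 is the form found in most other tissues. These genes were selected on their levels in knockout against control tumours, with the differences of Bcat1 and Bcat2 already known, so the values of the 7 members are given as a description and carry no p.

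The cytosolic aminotransferase transcript was all but missing from knockout tumours, whereas the mitochondrial one was several times more abundant there. Bcat1 (ENSMUSG00000030268) had 0, 0 and 3 reads in knockouts 1 to 3, against 324, 117 and 695 reads in controls 1 to 3. This was 0, 0 and 0.132 CPM in the knockout libraries and 16.4, 5.80 and 34.6 CPM in the control libraries, where 0 reads allow a level of up to 0.140 CPM in knockout 1 and up to 0.137 CPM in knockout 2. Pooled over each group and scaled, Bcat1 was 417-fold lower in knockout tumours, with a 95% interval of 142 to 2025 that covers counting error only. Every control library lay above every knockout library, and within the controls the highest library, control 3, held 5.97 times the level of the lowest, control 2.

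Bcat2 (ENSMUSG00000030826) showed the opposite order of the groups. It stood at 94.2, 133 and 149 CPM in knockouts 1 to 3, against 24.5, 34.7 and 12.0 CPM in controls 1 to 3. All 3 knockout libraries exceeded all 3 control libraries, with means of 125 ± 28.2 CPM in knockout tumours and 23.8 ± 11.4 CPM in control tumours (SD, n = 3 each). The fitted log2 fold change of Bcat2 was 2.40 ± 0.43 (SE), a 5.28-fold higher level in knockout tumours. Control 3, the library with the most Bcat1, had the least Bcat2, and control 2, with the least Bcat1 among the controls, had the most Bcat2 of them.

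**Figure D1:**
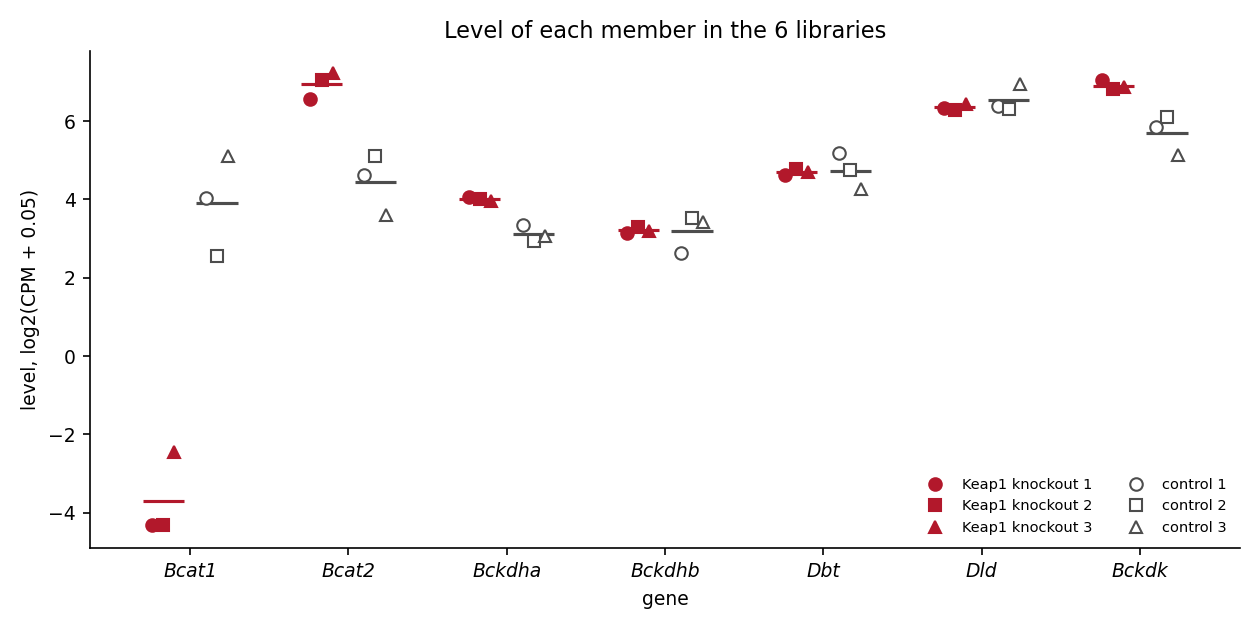
Level of each of the 7 genes in the 6 libraries, as log2 of CPM plus a pseudocount of 0.05, with knockout libraries as filled red symbols left of control libraries as open grey symbols, a marker shape for each sample number and a line at the mean of these log values in each group. Bcat1 sits at the bottom in the knockout libraries and Bcat2, Bckdha and Bckdk sit above their controls, while Bckdhb, Dbt and Dld overlap between the groups.

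Because both aminotransferases are counted in the same library, the share of their reads that came from Bcat1 does not depend on how libraries are scaled. Bcat1 made up 0%, 0% and 0.0884% of these reads in knockouts 1 to 3, out of 2020, 2906 and 3394 reads, and the exact Clopper-Pearson 95% intervals reached up to 0.182%, 0.127% and 0.258%. In controls 1 to 3 the share was 40.1% (95% interval 36.7% to 43.6%), 14.3% (12.0% to 16.9%) and 74.2% (71.2% to 76.9%), out of 807, 818 and 937 reads. Control 3 was therefore the library in which reads of the cytosolic form outnumbered those of the mitochondrial form. Bcat1 has the longer exons, 9322 bases against 3900 for Bcat2 in the GENCODE M21 annotation, and with counts divided by length the Bcat1 share was 21.9%, 6.53% and 54.6% in controls 1 to 3. The summed level of both genes was 94.2, 133 and 149 CPM in knockouts 1 to 3, against 41.0, 40.5 and 46.7 CPM in controls 1 to 3. The control libraries thus differed widely in the mix of both transcripts and little in their summed CPM. Per kilobase of exon length the sum was 8.05, 9.53 and 6.80 in controls 1 to 3, so control 3 was then the lowest.

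**Figure D2:**
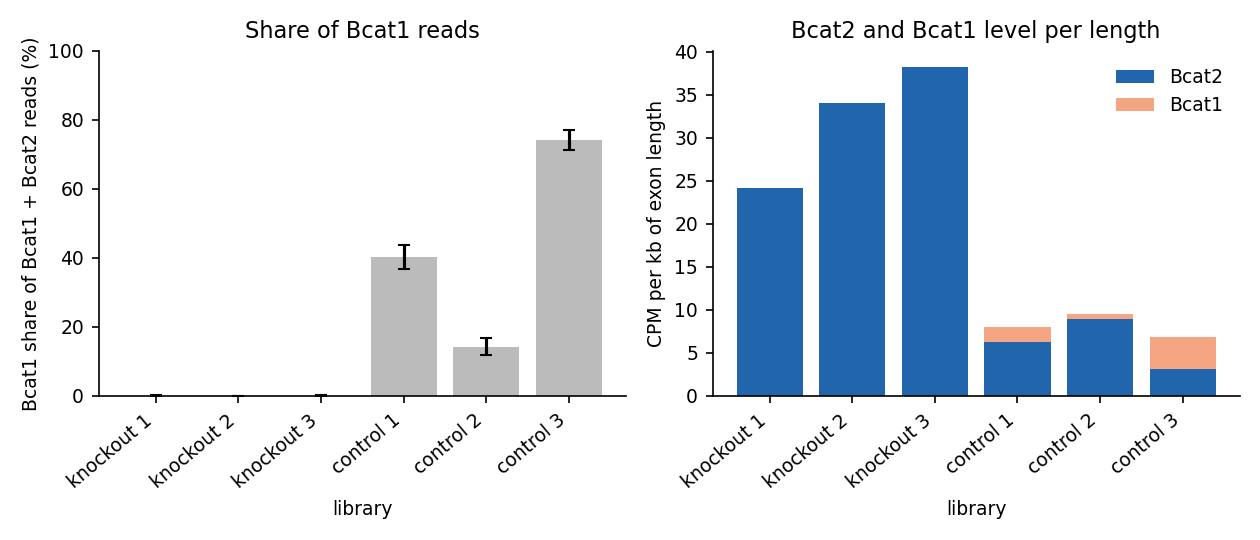
Left, percentage of Bcat1 among Bcat1 and Bcat2 reads in each library, with exact 95% binomial intervals as bars. Right, Bcat2 and Bcat1 stacked as CPM per kilobase of exon length, with a total of 24.2 to 38.2 in the knockout libraries and 6.80 to 9.53 in the control libraries, and Bcat1 too low to be seen in the knockouts.

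The sequences before the annotated start sites of both aminotransferase genes are shown because their transcripts differed in opposite directions. RefSeq (build GRCm38.p6) annotates 2 starts for each gene in the table used, and the 250 bases before each start are printed 5′ to 3′ on the strand of the gene, with CG pairs in capitals.
Bcat1, chr6:145076158-145076407, minus strand: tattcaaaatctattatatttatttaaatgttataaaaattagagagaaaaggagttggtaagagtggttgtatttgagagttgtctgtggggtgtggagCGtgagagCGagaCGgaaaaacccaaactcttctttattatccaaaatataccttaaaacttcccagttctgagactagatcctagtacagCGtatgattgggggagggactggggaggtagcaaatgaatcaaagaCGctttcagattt
Bcat1, chr6:145048813-145049062, minus strand: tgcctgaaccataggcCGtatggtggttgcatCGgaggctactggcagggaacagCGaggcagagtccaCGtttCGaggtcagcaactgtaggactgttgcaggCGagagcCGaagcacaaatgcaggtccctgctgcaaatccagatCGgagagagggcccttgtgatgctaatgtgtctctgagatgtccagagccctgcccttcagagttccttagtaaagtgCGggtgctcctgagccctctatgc
Bcat2, chr7:45569903-45570152, plus strand: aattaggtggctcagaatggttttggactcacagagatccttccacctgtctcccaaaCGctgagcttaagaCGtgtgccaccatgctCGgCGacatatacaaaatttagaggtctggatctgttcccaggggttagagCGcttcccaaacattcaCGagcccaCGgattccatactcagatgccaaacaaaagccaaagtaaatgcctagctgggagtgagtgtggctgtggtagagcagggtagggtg
Bcat2, chr7:45571029-45571278, plus strand: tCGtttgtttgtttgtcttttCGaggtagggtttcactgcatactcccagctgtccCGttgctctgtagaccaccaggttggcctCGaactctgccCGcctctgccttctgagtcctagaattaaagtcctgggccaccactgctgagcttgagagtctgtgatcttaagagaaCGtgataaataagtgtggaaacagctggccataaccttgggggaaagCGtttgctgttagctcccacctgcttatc
The Bcat1 stretches held 5 and 9 CG pairs and the Bcat2 stretches 7 each, against a median of 6 over 32851 such stretches of mouse genes. A search on both strands for the core of the antioxidant response element, the site NRF2 binds (TGACNNNGC), found no match in the 300-base windows from 250 bases before to 50 after these 4 starts, and 12.4% of all windows held one. The E-box CACGTG, a site of MYC, and TGATGNAA, a form of the amino acid response element, were not found there either, and were present in 7.15% and 3.97% of all windows. No match says only that these letters are not in these windows.

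Bcat1 is a gene that some cell types hold far more of than others, so the markers of those cells are given beside it. Summed over 5 neuroendocrine markers, knockouts 1 to 3 stood at 166, 47.0 and 26.1 CPM and controls 1 to 3 at 83.8, 52.8 and 3890.2 CPM. The 4 neuronal markers summed to 67.7, 40.4 and 78.2 CPM in knockouts 1 to 3 and to 64.9, 74.5 and 1332 CPM in controls 1 to 3, with Stmn3 at 0 reads in knockouts 1 and 2 and Elavl3 at 0 in knockout 2. Lower in every knockout library than in every control library were 2 of the neuroendocrine markers, Chga and Insm1. The same held for 3 of the neuronal ones, Elavl3, Stmn3 and Tubb3, and for 19.1% of all tested genes. Chga had 0 reads in knockout 3, and Insm1 had 0 in knockouts 2 and 3. The sums of the knockouts were carried by Calca, Ncam1 and Map2, so controls 1 and 2 lay near the knockouts in the sums and above them in these 5 markers. For control 2 most of these gaps rest on few reads. Chga had 10 reads there and 8 in knockout 2, and Insm1 28 against 2 in knockout 1. Elavl3 had 14 against 6 and Stmn3 12 against 3 in knockout 3, while Tubb3 had 433 against 98 in knockout 1. Control 3, with the most Bcat1, had by far the most of both marker lists.

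The 5 basal and squamous markers summed to 61.9, 5.17 and 1.10 CPM in knockouts 1 to 3, against 6866, 8.87 and 2.39 CPM in controls 1 to 3. The 5 fibroblast and matrix markers summed to 1012, 574 and 372 CPM in knockouts 1 to 3, against 432, 33788 and 4906 CPM in controls 1 to 3, and the 5 myeloid markers to 139, 117 and 110 CPM in knockouts 1 to 3, against 260, 569 and 138 CPM in controls 1 to 3, with 3 of the 5 lower in every knockout library. Over all tested genes 19.1% were lower in every knockout library than in every control library. Control 2, with the highest matrix and myeloid sums, had the least Bcat1 of the controls. The part of these marker differences in the Bcat1 and Bcat2 differences was not tested, and in whole tumours fewer cells of a type and less RNA per cell cannot be told apart. The 4 alveolar markers, of normal lung, summed to 1379, 3650 and 1349 CPM in knockouts 1 to 3 and to 644, 1201 and 133 CPM in controls 1 to 3, and the 2 markers of ciliated and club cells to between 1589 and 5342 CPM in the knockouts and between 138 and 1385 CPM in the controls. Both sums were higher in every knockout library than in every control library, but their members did not all follow: of the alveolar markers Sftpb was apart in this direction while Sftpc, Ager and Hopx overlapped, and of the other list Scgb1a1 was higher and Foxj1, the ciliated cell marker, lower in every knockout library than in every control library. Endothelial markers (3) summed to between 80.4 and 128 CPM in the knockouts and between 66.0 and 242 CPM in the controls, and T and B cell markers (3) to between 4.26 and 5.87 CPM and between 2.99 and 8.13 CPM.

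**Figure D3:**
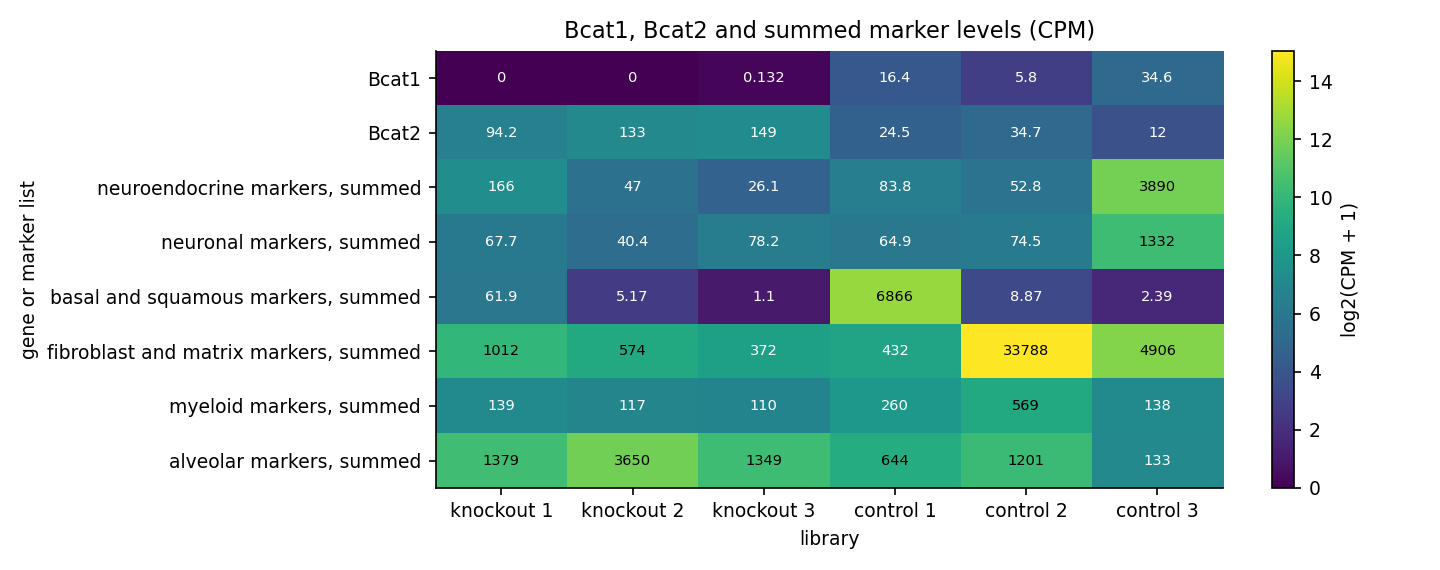
Bcat1, Bcat2 and the summed level of 6 marker lists in each library, with CPM printed in each cell and the colour giving log2 of CPM plus 1. Each control library has a marker list that is highest there: basal and squamous in control 1, fibroblast and matrix in control 2, neuroendocrine and neuronal in control 3.

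Among all 12704 other tested genes with a mean of at least 5 CPM, the profiles most like that of Bcat1 over the 6 libraries belonged to Shank1, Msi1, Trank1, Robo1 and Hs6st2. Likeness was measured as the root mean square difference of log2 CPM after each gene was centred on its own mean, which was 0.45 for Shank1, a scaffold gene of synapses, and 0.92 for the fifth, Hs6st2, a heparan sulfate sulfotransferase gene, against a median of 3.58 over all genes compared. Shank1 stood at 0.280, 0.275 and 0.659 CPM in knockouts 1 to 3, against 55.5, 9.71 and 148 CPM in controls 1 to 3. Msi1, which encodes an RNA-binding protein of neural progenitors, stood at 0.560, 0.321 and 0.396 CPM in knockouts 1 to 3, against 48.6, 15.8 and 110.8 CPM in controls 1 to 3. All 5 genes had their highest control level in control 3 and their lowest in control 2, as Bcat1 did. They were picked for this likeness over 6 libraries, and the measure is a description. Profiles were centred but not scaled, so a gene with flat levels differs from Bcat1 by the spread of Bcat1 itself. The median of 3.58 is therefore no neutral measure of likeness.

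Of the dehydrogenase subunits, the alpha chain was higher in knockout tumours and the other 3 overlapped between the groups. Bckdha (ENSMUSG00000060376), the alpha chain of the decarboxylase and the target of the kinase, stood at 16.7, 16.1 and 15.4 CPM in knockouts 1 to 3, against 10.2, 7.63 and 8.36 CPM in controls 1 to 3. The groups did not overlap, and the log2 fold change of Bckdha was 0.88 ± 0.28 (SE), or 1.85-fold higher in knockout tumours. In the GENCODE M21 annotation 61.7% of the exon length of Bckdha lies opposite B3gnt8, a gene on the other strand, and whether the counting used strand is not given in the sources used here. B3gnt8 itself stood at 6.85, 5.91 and 5.49 CPM in knockouts 1 to 3, against 15.9, 7.43 and 5.08 CPM in controls 1 to 3. Its groups overlapped. The same unknown handling of strand applies to the count of B3gnt8, and the part of its reads in the Bckdha difference was not tested. A shorter overlap with genes on the other strand took 15.9% of the exon length of Bcat2 (0610005C13Rik, at most 19 reads in any library) and 3.62% of that of Bcat1 (Gm26666, at most 3 reads).

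Bckdhb (ENSMUSG00000032263), the beta chain that forms the decarboxylase with BCKDHA, stood at 8.72, 9.75 and 9.14 CPM in knockouts 1 to 3, against 6.14, 11.4 and 10.7 CPM in controls 1 to 3. The groups overlapped because control 1 lay below the knockouts and controls 2 and 3 above them. The log2 fold change of Bckdhb was -0.03 ± 0.36 (SE). The 250 bases before the first annotated start of Bckdhb are shown because this was the window among the 9 of the 6 members in the RefSeq table that held the core TGACNNNGC, at 250 bases and, on the other strand, at 122 bases before the start, with both matches in capitals.
Bckdhb, chr9:83924887-83925136, plus strand: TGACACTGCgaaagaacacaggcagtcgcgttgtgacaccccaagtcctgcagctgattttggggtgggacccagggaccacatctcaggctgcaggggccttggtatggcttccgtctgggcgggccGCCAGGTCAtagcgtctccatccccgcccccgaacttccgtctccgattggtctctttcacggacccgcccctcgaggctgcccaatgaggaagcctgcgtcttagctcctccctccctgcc
This is 1 of 9 windows, where 12.4% of all windows held the core, and a match of letters is not shown to be a bound site. Neither CACGTG nor TGATGNAA was found in any of the 9 windows.

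Dbt (ENSMUSG00000000340), the core acyltransferase, stood at 24.7, 27.2 and 25.9 CPM in knockouts 1 to 3, against 36.0, 26.9 and 19.2 CPM in controls 1 to 3. The knockout libraries fell inside the range of the controls, and the log2 fold change of Dbt was -0.08 ± 0.28 (SE). Dld (ENSMUSG00000020664), the shared flavoprotein, stood at 80.9, 77.3 and 86.5 CPM in knockouts 1 to 3, against 83.0, 79.0 and 123 CPM in controls 1 to 3. Control 3 was the one library that stood apart for Dld, and the log2 fold change was -0.22 ± 0.22 (SE). For Bckdhb, Dbt and Dld the sign of so small a fold change differed between fits.

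Bckdk (ENSMUSG00000030802), whose kinase switches the complex off, was higher in knockout tumours. It stood at 131, 113 and 116 CPM in knockouts 1 to 3, against 57.3, 68.8 and 35.3 CPM in controls 1 to 3. The groups were apart, with means of 120.3 ± 9.70 CPM in knockout tumours and 53.8 ± 17.1 CPM in control tumours (SD, n = 3 each), and the log2 fold change of Bckdk was 1.16 ± 0.27 (SE). The transcripts of the kinase and of the chain it phosphorylates were thus both higher, and the ratio of Bckdk to Bckdha per length was 4.03, 3.61 and 3.87 in knockouts 1 to 3, against 2.90, 4.64 and 2.17 in controls 1 to 3, with overlapping groups. The opposing phosphatase gene Ppm1k, chosen after its values were seen, stood at 8.77, 7.88 and 11.3 CPM in knockouts 1 to 3, against 8.17, 12.3 and 13.7 CPM in controls 1 to 3, and overlapped as well.

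Levels of different genes were compared as CPM per kilobase of exon length. In knockout tumours the order was Bckdk at 32.6 ± 2.63, Dld at 22.2 ± 1.26, Bckdha at 8.48 ± 0.345, Dbt at 7.74 ± 0.364 and Bckdhb at 5.10 ± 0.288 CPM per kilobase (SD, n = 3). In control tumours it was Dld at 25.8 ± 6.68, Bckdk at 14.6 ± 4.62, Dbt at 8.17 ± 2.52, Bckdhb at 5.22 ± 1.58 and Bckdha at 4.59 ± 0.683 CPM per kilobase (SD, n = 3). In controls Bckdhb overlapped with both Dbt and Bckdha, while every control library had more Dbt than any had Bckdha. In knockouts Bckdha ranged from 8.12 to 8.81 and Dbt from 7.38 to 8.11 CPM per kilobase, so their ranges nearly met. With the length of the longest transcript in place of the exon length, the order in each group was the same. The place of Bckdha in both orders assumes that reads over all its exons were counted, though 61.7% of their length lies opposite B3gnt8.

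Within a library, the 2 chains of the decarboxylase stood in a ratio of Bckdha to Bckdhb per length of 1.82, 1.57 and 1.60 in knockouts 1 to 3, against 1.57, 0.636 and 0.743 in controls 1 to 3. The groups met at knockout 2 and control 1. The ratio of Dbt to Bckdha per length was 0.837, 0.956 and 0.952 in knockouts 1 to 3, against 2.01, 2.00 and 1.30 in controls 1 to 3, and here the groups were apart. By this measure, the core subunit transcript was below that of the alpha chain in each knockout library and above it in each control library. The measure divides by the full exon length of Bckdha, 61.7% of which lies opposite B3gnt8. How reads shared by both genes were counted is not known, and the side of 1 on which this ratio falls depends on it. The ratio of Bcat2 to Bckdha per length was 2.74, 4.02 and 4.70 in knockouts 1 to 3, against 1.18, 2.22 and 0.701 in controls 1 to 3, and the groups were apart here too.

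**Figure D4:**
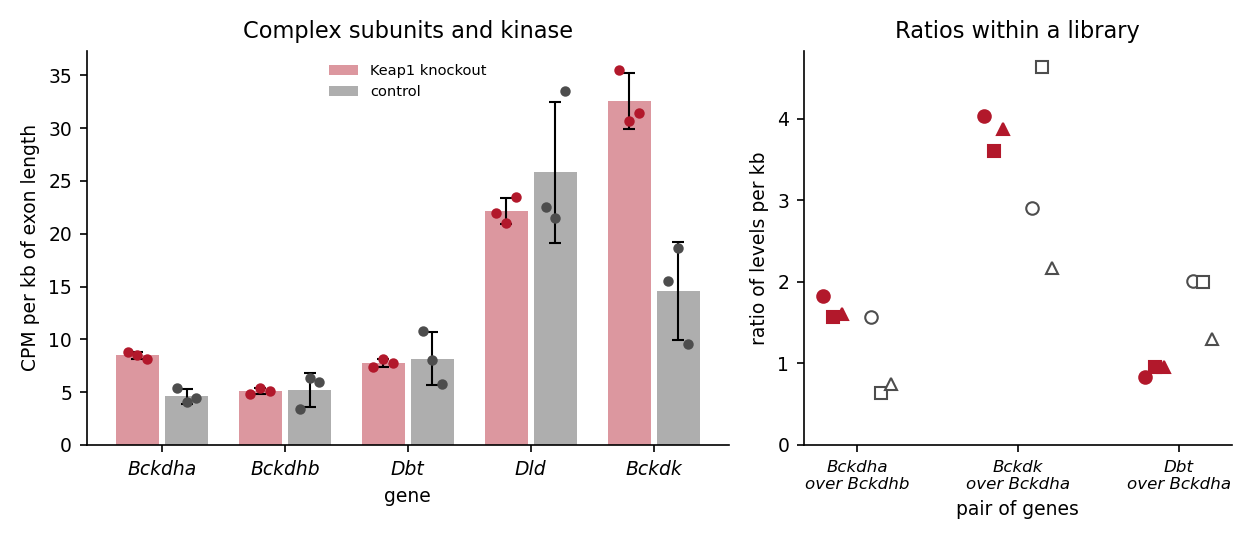
Left, CPM per kilobase of exon length of the 4 complex subunits and the kinase, with knockout bars left of control bars, points for the libraries, bars for the mean and error bars for the SD (n = 3). Right, ratios of levels per kilobase within each library, knockouts as filled red and controls as open grey symbols with a shape for each sample number. With the full exon length of each gene, Dbt over Bckdha lies below 1 in every knockout library and above 1 in every control library.

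The knockout libraries resembled each other in these genes more than the controls did. For the 6 members other than Bcat1 the coefficient of variation of CPM was between 4.07% (Bckdha) and 22.5% (Bcat2) in knockout tumours and between 14.9% (Bckdha) and 47.8% (Bcat2) in control tumours. Each of these 6 members varied more among the controls, as did the median of all tested genes, whose SD of log2 CPM was 0.22 among knockouts and 0.58 among controls.

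Across all genes, with the quasi-likelihood test of edgeR, p adjusted after Benjamini and Hochberg and a threshold of 0.05, Bcat1 was called lower and Bcat2 higher, which makes 2 of the 7 members, while 4.31% of all 17901 tested genes were called. Groups were apart for 4 of the 7 members (Bcat2, Bckdha and Bckdk higher, Bcat1 lower in knockout tumours), and 40.7% of all tested genes were apart. The differences of Bcat1 and Bcat2 were known when the members were chosen, so nothing is read from these counts. The count of members called was 0 without control 1 (3.91% of all genes called), without control 2 (1.42%) and without knockout 1 (0.0106%), 2 (0%) or 3 (0%), and it was 3 without control 3 (Bcat1, Bcat2 and Bckdk; 17.2%). DESeq2 called 4 (Bckdha as well) where it called 25.9% of all genes, and limma voom called the same 2 members as edgeR where it called 5.13% of all genes. The median log2 fold change of the 7 members was -0.03, against -0.08 over all tested genes. The authors' deposited table of their own comparison gives log2 fold changes of -8.73 for Bcat1, 2.39 for Bcat2, 0.88 for Bckdha, -0.04 for Bckdhb, -0.09 for Dbt, -0.23 for Dld and 1.15 for Bckdk.

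Beyond the dehydrogenase complex, each ketoacid follows its own mitochondrial route, and 46 genes of these routes and of neighbouring steps were tested in 8 lists. The lists were drawn up from textbook roles with earlier results of these data known. Their counts and p are therefore a description and no independent support. Of the 46, 2 rose in knockout tumours (Hsd17b10 and Slc3a2) and none fell, where 2.42% of all tested genes were called higher and 1.89% lower. At an unadjusted p below 0.05 there were 14 higher and 2 lower, against 13.8% higher and 16.9% lower over all tested genes, 30.7% in either direction, which is the background for the unadjusted counts of each list. DESeq2 called 15 higher and 2 lower, against 11.5% and 14.4% of all tested genes, and limma voom called 3 higher and 0 lower. The median log2 fold change of the 46 was 0.20, against -0.08 over all tested genes. Groups were apart for 21 of the 46 with higher and for 4 with lower levels in knockout tumours, against 21.5% and 19.1% of all tested genes.

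The isoleucine route held the gene with the smallest p of the 46. Hsd17b10, a mitochondrial dehydrogenase gene whose product acts late in isoleucine breakdown and is also a subunit of mitochondrial ribonuclease P, stood at 225, 218 and 198 CPM in knockouts 1 to 3, against 53.2, 40.3 and 23.7 CPM in controls 1 to 3. Its groups lay far apart, by 2.45 ± 0.32 (SE) on the log2 scale, and edgeR returned 0.0308 as the adjusted p, with 3 of 3 knockout libraries above every control. Over the alternatives its adjusted p ran from 3.76e-09 to 0.196 and its log2 fold change from 2.19 to 2.75. The call ended without knockout 1, 2 or 3 (0.138, 0.196 and 0.180) and without control 2 (0.0616). The other 3 genes of the route, Acadsb, Echs1 and Acat1, had log2 fold changes between -0.76 and 0.07 and did not pass.

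In the leucine route edgeR called 0 of 6 genes, with 3 higher at an unadjusted p below 0.05 (DESeq2 2, limma voom 0), and the median log2 fold change was 0.44. The smallest p belonged to Auh, the hydratase gene of the route, and Mccc2, a subunit gene of the carboxylase. Auh stood at 38.4, 33.9 and 48.3 CPM in knockouts 1 to 3, against 18.5, 21.9 and 19.5 CPM in controls 1 to 3 (edgeR, adjusted p = 0.0588). Mccc2 differed by 1.01 ± 0.24 (SE) on the log2 scale (edgeR, adjusted p = 0.0654). Both passed without control 3, at an adjusted p by edgeR of 0.0382 for Auh and 0.0380 for Mccc2, and both passed with DESeq2. Over the alternatives their adjusted p ran from 0.000340 to 0.246 for Auh and from 0.000249 to 0.261 for Mccc2.

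In the valine route edgeR called 0 of 4 genes, with 3 higher at an unadjusted p below 0.05 (DESeq2 3, limma voom 0), and the median log2 fold change was 0.83. Hibadh, the hydroxyisobutyrate dehydrogenase gene, stood at 178, 135 and 158 CPM in knockouts 1 to 3, against 50.2, 74.6 and 27.5 CPM in controls 1 to 3. Its adjusted p by edgeR was 0.0639, and 0.0253 without control 3, with a range of 0.00222 to 0.240 over the alternatives. Aldh6a1, whose enzyme ends the route, averaged 46.1 ± 9.70 CPM in knockout tumours and 24.0 ± 4.24 CPM in control tumours (SD, n = 3 each; edgeR, adjusted p = 0.0778). In the propionate route, which isoleucine and valine share at their end, edgeR called 0 of 6 genes and 0 at an unadjusted p below 0.05 (DESeq2 1, limma voom 0), and the median log2 fold change was 0.24. Mmab and Mcee had the smallest p there, with differences of 0.52 ± 0.22 and 0.78 ± 0.35 on the log2 scale (SE), and did not pass.

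Of the 7 genes for the phosphatase and for carriers of branched-chain amino acids, 1 rose and the median log2 fold change was -0.29. Slc3a2, the heavy chain that pairs with several amino acid transporters, stood at 560, 943 and 813 CPM in knockouts 1 to 3, against 251, 158 and 116 CPM in controls 1 to 3 (edgeR, adjusted p = 0.0418), a log2 fold change of 2.14 ± 0.37 (SE). That call ended without knockout 1, 2 or 3 (adjusted p by edgeR of 0.138, 0.220 and 0.211) and without control 2 (0.0769), and over the alternatives the adjusted p ran from 9.40e-06 to 0.220. Its partner in leucine uptake, Slc7a5, chosen after its values were seen, averaged 89.9 CPM in knockout tumours and 142 CPM in control tumours and overlapped between the groups. The count for this list was 4 without control 3 and 2 without control 1, where 17.2% and 3.91% of all genes were called. At an unadjusted p below 0.05 edgeR had 2 higher and 1 lower, and DESeq2 called 2 higher and 1 lower (limma voom 1). Besides Slc3a2, the higher one by edgeR was Slc43a2, chosen after its values were seen. Its levels were 165, 144 and 251 CPM in knockouts 1 to 3, against 54.8, 88.2 and 88.2 CPM in controls 1 to 3. The adjusted p of Slc43a2 by edgeR was 0.0669. The lower one by edgeR was Slc43a1, also chosen after its values were seen. It stood at 1.26, 0.778 and 0.659 CPM in knockouts 1 to 3, against 2.74, 7.53 and 9.26 CPM in controls 1 to 3 (edgeR, adjusted p = 0.0553).

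The complexes that share Dld were tested as 10 genes, of which edgeR called 0, with 3 higher and 1 lower at an unadjusted p below 0.05 (DESeq2 3 higher and 1 lower, limma voom 0). Gldc, the decarboxylase gene of the glycine cleavage system, stood at 8.53, 20.7 and 16.5 CPM in knockouts 1 to 3, against 3.05, 1.34 and 0.498 CPM in controls 1 to 3. For Gldc edgeR returned an adjusted p of 0.0662, or 0.0353 without control 3, over a range of 0.000153 to 0.253 over the alternatives. Pdhb, a subunit gene of pyruvate dehydrogenase, had a log2 fold change of 0.63 ± 0.20 (SE) without passing. The median log2 fold change of these 10 genes was 0.03. Of the 3 genes that attach the lipoyl group DBT needs, edgeR called 0 and 0 at an unadjusted p below 0.05 (DESeq2 1, limma voom 0), with log2 fold changes of 0.74 ± 0.35 for Lipt1 and -0.82 ± 0.52 for Lipt2 (SE).

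Other enzymes that move amino groups to or from glutamate were called in 0 of 6 cases by edgeR, with 2 higher at an unadjusted p below 0.05 (DESeq2 2, limma voom 1), and the median log2 fold change was 0.68. The alanine aminotransferase genes had the smallest p. Gpt stood at 65.2, 40.2 and 42.3 CPM in knockouts 1 to 3, against 9.09, 19.8 and 7.67 CPM in controls 1 to 3, and Gpt2 at 79.1, 175 and 147 CPM, against 64.5, 26.3 and 12.9 CPM. Each knockout library exceeded each control library for both. The adjusted p by edgeR was 0.0597 for Gpt and 0.111 for Gpt2. Gpt passed with DESeq2 (0.000638), with limma voom (0.0483), without control 2 (0.0495) and without control 3 (0.0463). Over the alternatives the adjusted p of Gpt ran from 0.000638 to 0.236. Gpt2 passed with DESeq2 only (0.0214), with a range of 0.0214 to 0.296.

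**Figure D5:**
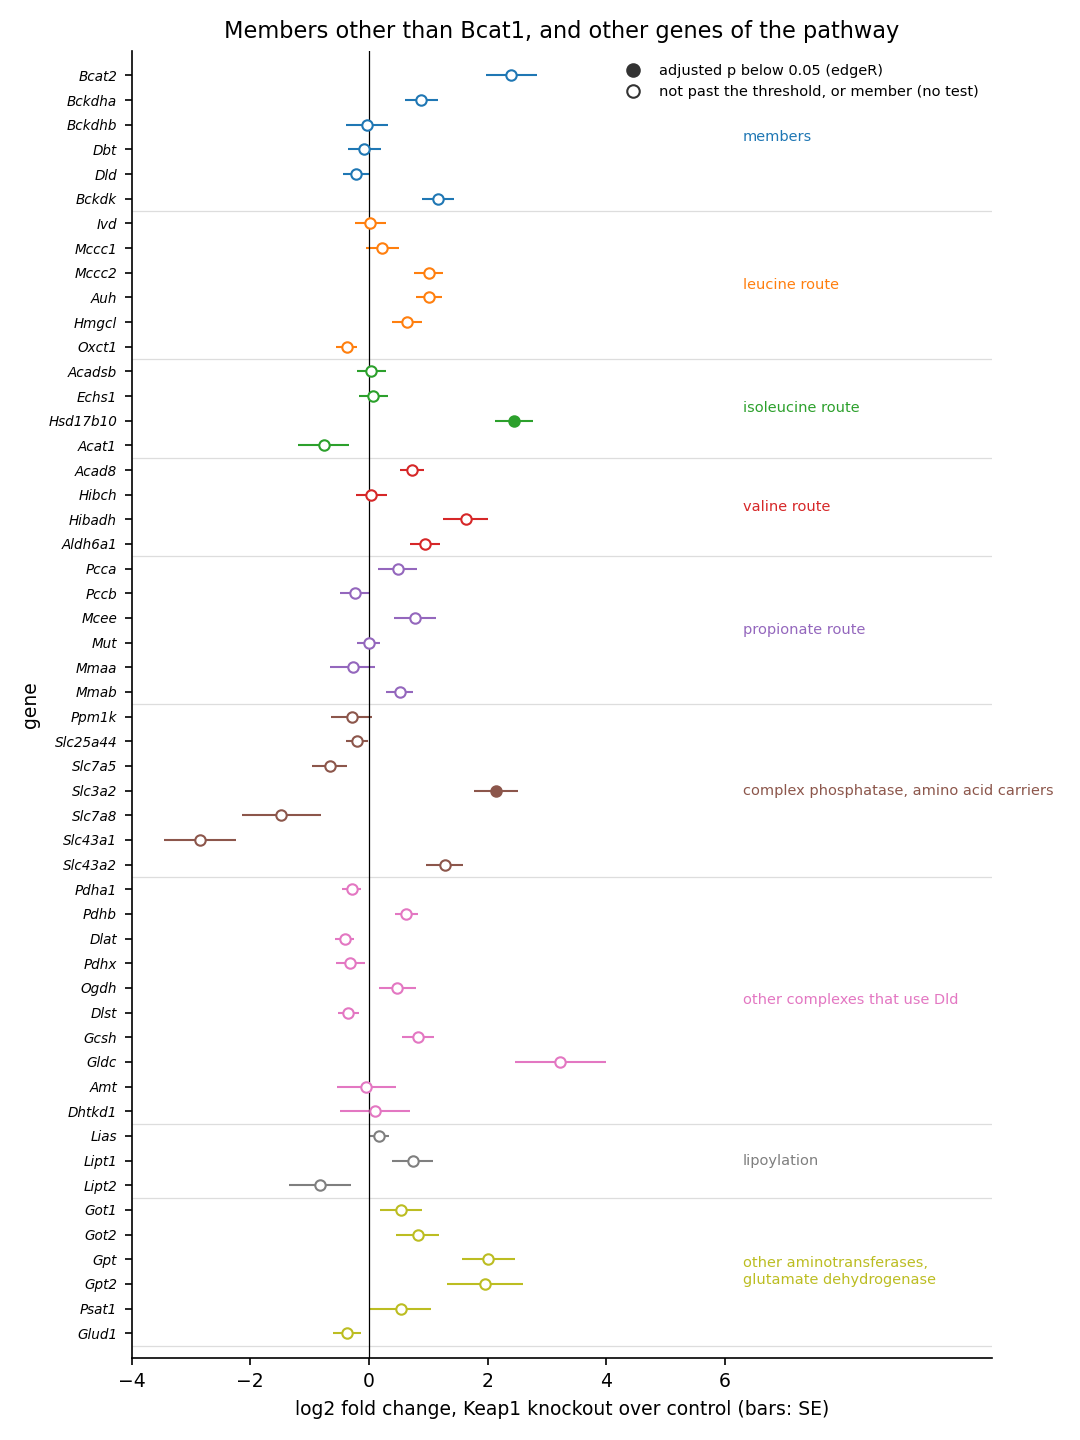
Log2 fold change of knockout over control tumours, with its SE as bars, for the 6 members other than Bcat1 and for the 46 other genes of the pathway in 8 lists. Filled symbols mark Hsd17b10 and Slc3a2, the genes of the lists past an adjusted p of 0.05 by edgeR. Members are drawn open whether or not edgeR called them, because no p is given for single members. Bcat2, drawn open, was called higher. Mut is the symbol used for the methylmalonyl-CoA mutase gene.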

How the data were processed

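Messenger RNA was sequenced from 3 Keap1 knockout and 3 control tumours, and groups follow the sample titles. The authors deposited unnormalized counts for each Ensembl identifier, from reads aligned by STAR to mm39 per the submitters' processing notes. The sources used here do not give the counter, its annotation, strand setting or handling of shared reads. Their deposited comparison holds a mean signal, log2 fold changes, Wald scores and p-values, from DESeq2 per the submitters' processing notes.

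Symbols came from a gene name table (52073 of 56980 identifiers), and exon lengths from GENCODE M21, an earlier build. The filter was filterByExpr, followed by new library totals and TMM scaling, and genotype was tested with edgeR 4.0.16 (quasi-likelihood, robust, two-sided, Benjamini-Hochberg over 17901 genes, R 4.3.3). Other settings were scaling by RLE or upper quartile, no filter, 1 CPM in 3 samples, DESeq2 1.42.0, limma voom 3.58.1, each sample left out, a replicate block and an adjusted p below 0.1. Log2 CPM used a prior count of 2. The SE of an edgeR log2 fold change is its absolute value over the square root of the F statistic of the quasi-likelihood test. Counts had the depths given in the report, and intervals and floors (3 counts) cover counting error only.

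The members, the lists and the tests were chosen with earlier results of these data known. Named genes were the members, Keap1, up to 4 called genes per list or else the 2 with the smallest p, the 5 profiles nearest to Bcat1 and cell markers. Genes outside this rule are named as chosen after their values were seen, besides B3gnt8, 0610005C13Rik and Gm26666, named for their overlap, and Acadsb, Echs1 and Acat1, which complete a list. A marker of the neuroendocrine list is not reported here and was left out of its sum.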

Additional observations from a re-analysis of the deposited data

How the results depend on the processing

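With 3 samples a group and controls that differ widely, the number of calls depends on single libraries. The 771 genes called by edgeR were 465 without the filter, 4642 with DESeq2, 3117 at an adjusted p below 0.1, and between 0 and 3209 with a sample left out. Members called were 2 in the main test, 4 with DESeq2 and between 0 and 3 with a sample left out. Calls in the lists with DESeq2 were 2 (leucine), 3 (valine), 1 (propionate), 3 (phosphatase and carriers), 4 (complexes with Dld), 1 (lipoylation) and 2 (other aminotransferases). Phosphatase and carriers had 2 with the filter of 1 CPM in 3 samples, and other aminotransferases 1 with limma voom. With a sample left out the lists ranged from 0 to 2 (leucine), 0 to 1 (isoleucine), 0 to 1 (valine), 0 to 4 (phosphatase and carriers), 0 to 2 (complexes with Dld) and 0 to 1 (other aminotransferases). The cause of these moves was not tested. The log2 fold change ranged over the alternatives from -11.61 to -7.77 for Bcat1, whose fitted value rests on 3 knockout reads, from 2.08 to 2.80 for Bcat2, from 0.82 to 1.01 for Bckdha and from 0.93 to 1.40 for Bckdk. It changed sign for Bckdhb (-0.26 to 0.15), Dbt (-0.28 to 0.18) and Dld (-0.31 to 0.01). The 4 members with groups apart stayed 4 under RLE and upper-quartile scaling. With a sample left out they were 4 or 5, but groups already apart can hardly come to overlap then, so this is no check. Per length of the longest transcript, a choice made after seeing the data, levels were 6.23 for Bckdhb in knockout tumours, and 32.1 and 37.4 for Dld in knockout and control tumours. With the sample number as a replicate block edgeR called 0 genes, with 4026 at an unadjusted p below 0.05, and so 0 members and 0 genes in the isoleucine and the phosphatase and carrier lists. Same-numbered samples correlated in their deviations from the group means at 0.00012 to 0.051, and knockout 1 correlated best with control 2 (0.053), so the numbers were not taken to pair the samples.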
